A study of Apis mellifera with 27 samples.

Results

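Cry2 and Per encode the repressors at the centre of the honey bee circadian clock, and their transcripts were followed over a day in brain tissue enriched for small Kenyon cells. Both were taken by name, as the genes whose identifier in the count table was Cry2 or Per, which gives 2 of 12319 genes. Both passed the filter on low counts that left 9816 genes for the tests. The animals were foragers of Apis mellifera that the submitters call time-trained. Tissue was cut from the mushroom bodies by laser capture microdissection, polyadenylated RNA was sequenced with a stranded kit, and the deposited values are reads counted per gene. Bees were taken every 4 h, at 06:00, 10:00, 14:00, 18:00 and 22:00 of day 11 and at 02:00 and 06:00 of day 12, from colony 2 and colony 1, which were independent and were run as separate experiments. There was no untreated or untrained group, so all groups share the training and differ in time and colony. The labels name no light schedule, and they do not say how many bees went into a library.

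Of the 27 libraries, 13 came from colony 2 and 14 from colony 1, with 4 per time point, 2 from each colony, and 3 at 06:00 of day 11, where colony 2 has 1. The 27 libraries include no colony 2 replicate 1 of 06:00 of day 11. Total counts per library ran between 5589770 and 10846551 in colony 2, and between 8732841 and 12277539 in colony 1. On the first principal component of all genes, 3 colony 2 libraries stood apart, with scores between 65.98 and 94.66 against at most 45.05 in the other 24. These were replicate 2 of 06:00 of day 11 and both replicates of 10:00. The main results that rest on them are also given without them. Nothing in the labels says that replicates came from separate bees, so p-values cover only the variation among the libraries sequenced, part of which may be technical.

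In the insect and mammalian clock, the proteins CLOCK and CYCLE (BMAL1 in mammals) switch on the genes of their own repressors. The repressor proteins build up, enter the nucleus and shut CLOCK and CYCLE down, and the loop starts again once they are degraded. In Drosophila the repressor is PER with TIM, and a light-sensing cryptochrome resets it. The honey bee has no TIM of that kind and no light-sensing cryptochrome, and carries the mammalian type, CRY2, which is a strong transcriptional repressor and takes the place of TIM beside PER. Kenyon cells are the neurons that make up the mushroom bodies, brain centres that insects use in learning and memory. Small ones are a class of these and do not belong to the pacemaker neurons of the brain.

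Mean Cry2 transcript was lowest at 10:00 and highest at 22:00. With the libraries of both colonies in 1 model, a cosine with a period of 24 h passed. The test for any difference among the 7 time points did not. Only 1 span of 24 h was sampled, so a return of the course from day to day was not observed. Levels are in CPM (counts scaled by the TMM-adjusted library size), and serve here to compare 1 gene between libraries, not 1 gene with another. At 06:00 of day 11 Cry2 stood at 3.95 CPM in the single colony 2 library and at 12.95 and 13.2 CPM in colony 1. At 10:00 it stood at 3.92 and 0 CPM in colony 2 and at 5.68 and 7.21 CPM in colony 1. These 4 libraries of 10:00 were low in both colonies and overlapped those of 06:00 only through the colony 2 library of that time, which is 1 of the 3 that stand apart. By 14:00 Cry2 was at 14.7 and 17.0 CPM in colony 2 and at 11.2 and 9.95 CPM in colony 1, and every library of 14:00 was above every library of 10:00. The same separation upward was found for 1.89% of all genes.

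The highest libraries of Cry2 came at 22:00 and 02:00. At 18:00 it stood at 14.2 and 19.1 CPM in colony 2 and at 17.7 and 19.4 CPM in colony 1. At 22:00 it reached 22.4 and 30.8 CPM in colony 2 and 23.6 and 23.3 CPM in colony 1, above every library of the 5 other times apart from 02:00. At 02:00 the level was 28.8 and 20.2 CPM in colony 2 and 15.7 and 18.8 CPM in colony 1, so that the libraries of 02:00 overlapped those of 22:00 and of 18:00. By 06:00 of day 12 Cry2 was back at 17.1 and 9.99 CPM in colony 2 and at 12.5 and 9.10 CPM in colony 1.

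**Figure D1:**
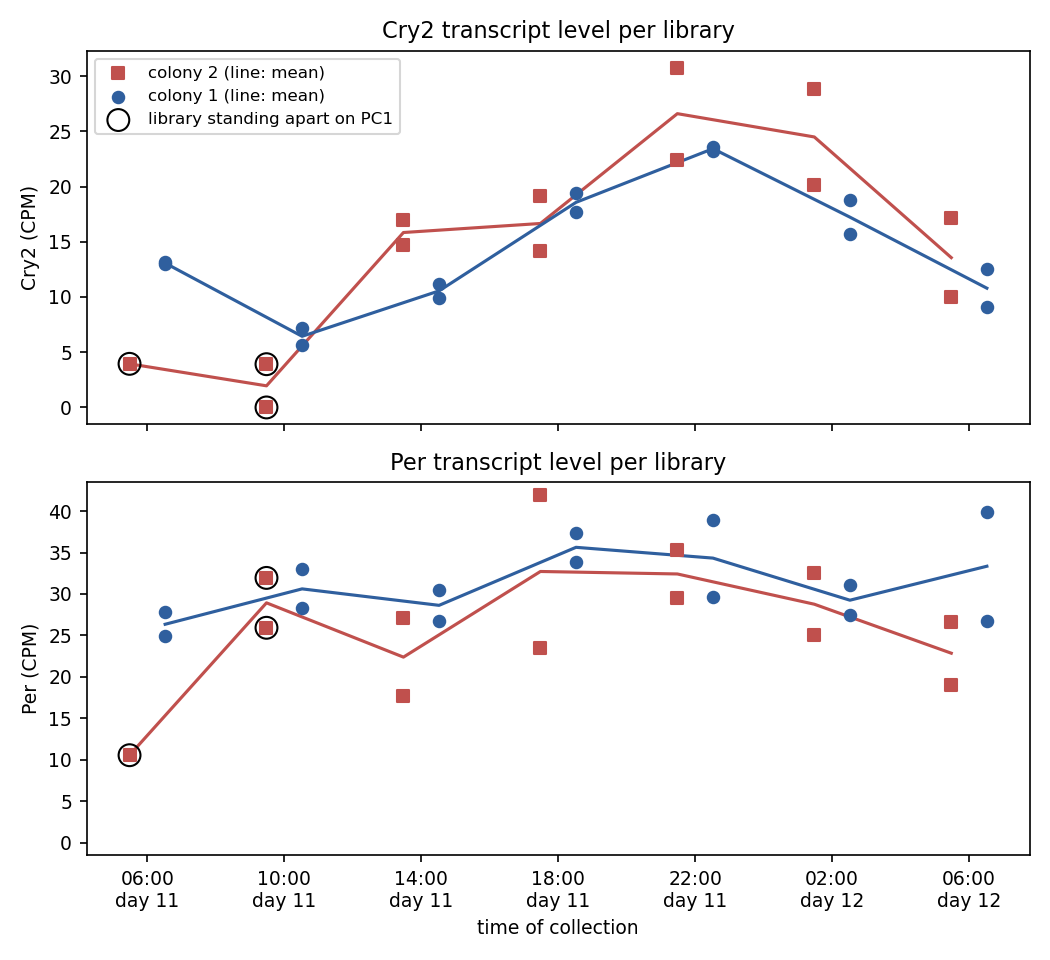
Cry2 (top) and Per (bottom) in CPM in each of the 27 libraries, by time of collection, with colony 2 as red squares, colony 1 as blue circles, lines through the colony means, and black rings round the 3 libraries that stand apart. Cry2 is lowest at 10:00 and highest at 22:00 in each colony, whereas the Per libraries spread between 10.6 and 41.9 CPM with no such course.

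The mean of Cry2 was 25.0 ± 3.86 CPM at 22:00 (SD, n = 4) and 4.20 ± 3.11 CPM at 10:00 (SD, n = 4), a ratio of 5.96. It was 3.88 without the 3 libraries that stand apart. The same times gave the highest and the lowest mean within each colony. In colony 2 the means were 26.6 CPM at 22:00 and 1.96 CPM at 10:00, a ratio of 13.6. In colony 1 they were 23.4 CPM at 22:00 and 6.44 CPM at 10:00, a ratio of 3.64. The colony 2 value rests on the 2 libraries of 10:00 that stand apart, of which replicate 2 had no Cry2 read. Without that replicate the colony 2 level at 10:00 was 3.92 CPM and the ratio 6.79. The count of 0 allows up to 0.515 CPM (3 counts, counting error only), and the same library held 186 reads of Per.

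All pairs of times were then tested, later minus earlier and on both sides, which put the difference of Cry2 between 22:00 and 10:00 at 2.57 on the log2 scale (SE 0.521), with adjusted p = 0.00853 by edgeR's quasi-likelihood test. For that pair 2.16% of all genes were called, and 1.22% were called as higher at 22:00. The difference between 02:00 and 10:00 was 2.31 (SE 0.519, edgeR adjusted p = 0.00765), in a pair where 6.55% of genes were called and 3.59% were called as higher. These were the 2 of 21 pairs in which Cry2 was called with adjustment over the genes of each pair. With adjustment over the genes and all 21 pairs together, the difference of 22:00 from 10:00 had edgeR adjusted p = 0.0284 and that of 02:00 from 10:00 had 0.0527. Without the 3 libraries that stand apart, the first difference was 1.81 (edgeR adjusted p = 0.00451) and the second 1.54 (edgeR adjusted p = 0.00571), so both stayed called and became smaller. Leaving out replicate 2 of 10:00 from colony 2, the library with no Cry2 read, gave 2.13 and 1.87.

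Both differences were also found within each colony. Between 22:00 and 10:00 Cry2 differed by 3.76 in colony 2 (SE 0.908, edgeR adjusted p = 0.0341) and by 1.84 in colony 1 (SE 0.272, edgeR adjusted p = 0.00132), where 3.34% of genes in colony 2 and 4.31% in colony 1 were called. Between 02:00 and 10:00 it differed by 3.66 in colony 2 (edgeR adjusted p = 0.0144) and by 1.40 in colony 1 (edgeR adjusted p = 0.00521), where 12.2% of genes in colony 2 and 5.67% in colony 1 were called. In colony 2 all libraries of 10:00 stand apart, so no value can be had without them. Without replicate 2, the library with no Cry2 read, the colony 2 differences were 2.75 for 22:00 (edgeR adjusted p = 0.0204, 5.07% of genes called) and 2.65 for 02:00 (edgeR adjusted p = 0.0121, 12.9% called), a setting added after the data were seen. Without replicate 1 that library alone was left at 10:00, and no fold is given. The interaction, colony 2 minus colony 1, was 1.92 for the first pair (SE 0.873, edgeR adjusted p = 0.278) and 2.24 for the second (SE 0.876, edgeR adjusted p = 0.118). Neither passed. In colony 1 alone, Cry2 also fell by 1.01 between 06:00 and 10:00 of day 11 (SE 0.272, edgeR adjusted p = 0.0307, 6.76% of genes called) and was higher by 1.51 at 18:00 than at 10:00 (edgeR adjusted p = 0.0230, 0.436% called).

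**Figure D2:**
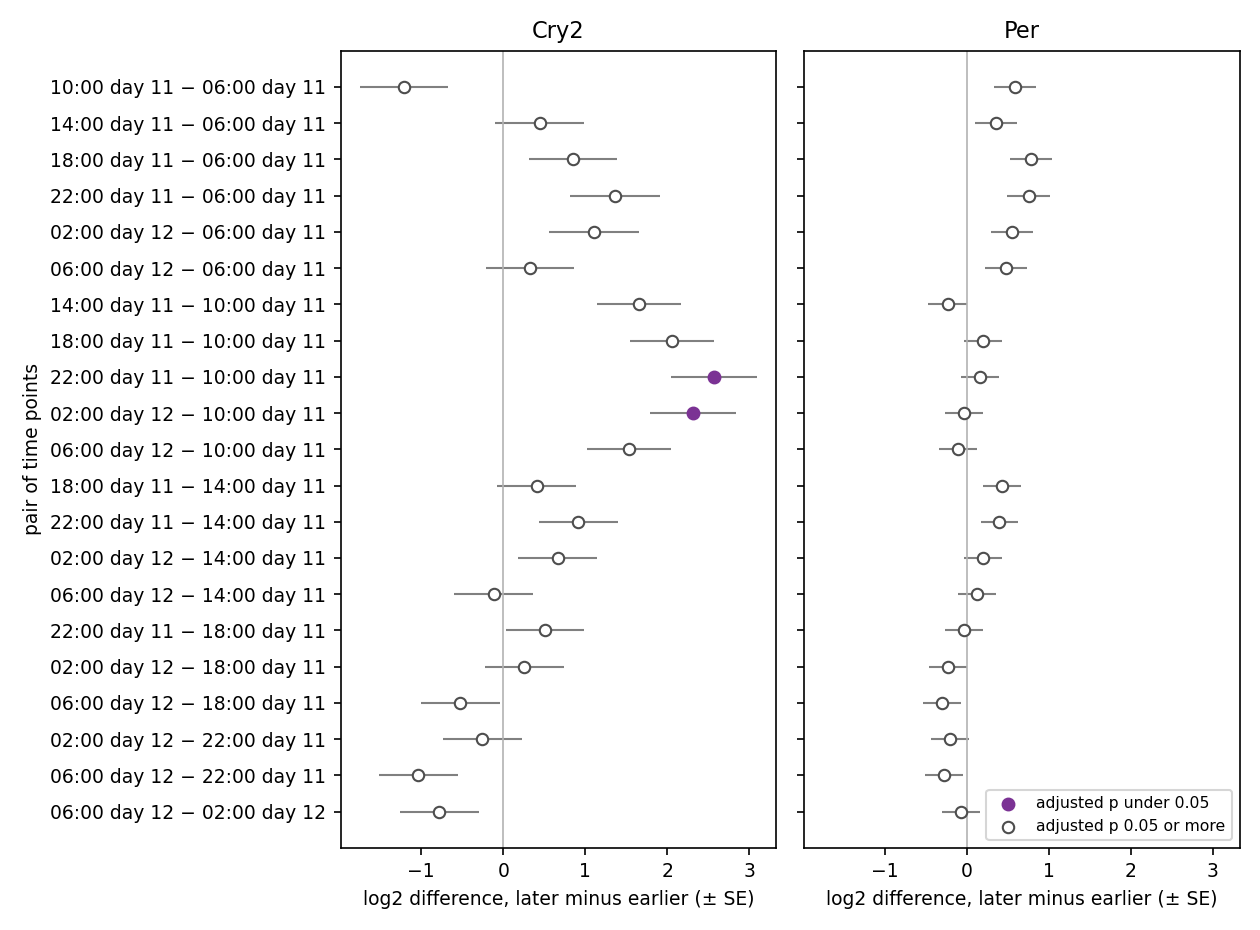
Log2 difference of Cry2 (left) and Per (right) for the 21 pairs of time points, later minus earlier, from the fit to all 27 libraries. Bars are ± 1 SE and filled points have edgeR adjusted p under 0.05 over the genes of that pair: 22:00 and 02:00, each against 10:00, are filled for Cry2, and none is filled for Per.

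Set in order of its mean, Cry2 went 10:00, 06:00 of day 11, 06:00 of day 12, 14:00, 18:00, 02:00 and 22:00, from low to high. No neighbours in that order could be told apart: the libraries overlapped in all 6 neighbouring pairs, and their edgeR adjusted p-values were 0.220 or higher. Over wider steps the libraries separated. In 11 of 21 pairs those of the later time lay wholly above or wholly below those of the earlier time. Of all genes tested, 0.194% had as many such pairs or more, a description over pairs that share their libraries. At 06:00 on the 2 successive days the mean was 12.2 ± 3.61 CPM on day 12 (SD, n = 4) and 10.0 ± 5.27 CPM on day 11 (SD, n = 3). The difference was 0.32 (SE 0.538, edgeR adjusted p = 0.824), and it was -0.26 without the 3 libraries that stand apart.

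A cosine with a period of 24 h put the peak of Cry2 at 22.1 h after midnight, with 1.95 on the log2 scale between peak and trough (edgeR adjusted p = 0.0186). In this test 4.31% of all genes were called, and Cry2 ranked 145 by p among 9816 genes and 403 by size, where the median over all genes was 0.37. Terms with a period of 12 h added nothing that passed (edgeR adjusted p = 1.00). They passed for 0 of the 9816 genes. In colony 2 alone the fitted peak was at 21.9 h and the size 2.38, with edgeR adjusted p = 0.288 and 0.00981% of genes called. In colony 1 alone the peak was at 22.3 h and the size 1.61, with edgeR adjusted p = 0.00165 and 5.4% of genes called. The test that the cosine differed between the colonies gave edgeR adjusted p = 0.854, where 0.0204% of genes were called. Without the 3 libraries that stand apart the peak was at 22.3 h and the size 1.43 (edgeR adjusted p = 0.000356), and without the 4 libraries of 10:00, a choice made after the data were seen, the size was 1.39 (edgeR adjusted p = 0.0494).

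**Figure D3:**
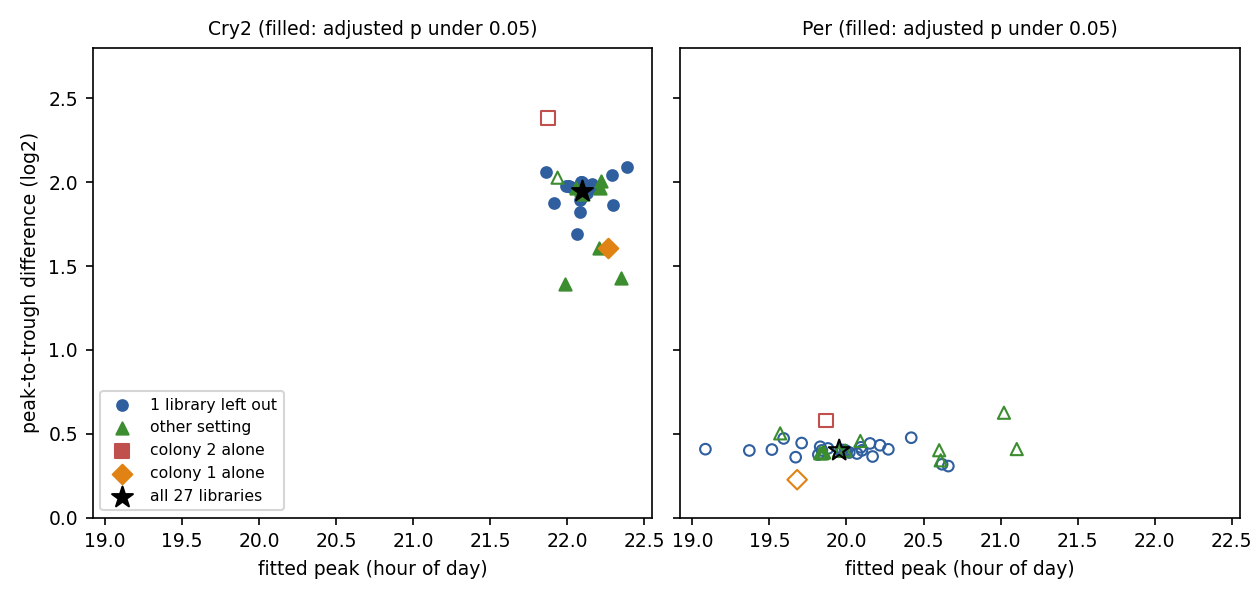
Fitted hour of the peak (x, hour of day) against the log2 difference between peak and trough (y) of a 24 h cosine for Cry2 (left) and Per (right), with 1 point for each alternative setting; filled points have adjusted p under 0.05. Cry2 peaks lie between 21.9 and 22.4 h and are called in 40 of 42 alternatives, while those of Per lie between 19.1 and 21.1 h with sizes of 0.23 to 0.63 and are called in 0 of 42.

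The test for any difference among the 7 time points, which spends more parameters than the cosine, did not pass for Cry2. Its fitted range was 2.57 on the log2 scale, with edgeR adjusted p = 0.0590 (unadjusted p = 0.00147), and 2.29% of all genes were called. Within colony 2 the same test gave edgeR adjusted p = 0.0567 (21.2% of genes called) and within colony 1 it gave 0.00519 (3.82% called). This call depended on the choice of tool and library: 9 of 42 alternatives passed, among them DESeq2 with adjusted p = 0.000168 and the fit without the 3 libraries that stand apart with edgeR adjusted p = 0.00497. Omitting any 1 of 3 libraries also made it pass, replicate 1 of colony 1 (0.0362) or replicate 2 of colony 2 (0.0228) at 06:00 of day 11, or replicate 2 of colony 2 at 10:00 (0.0204).

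Per, which encodes the partner of CRY2, showed no difference over the day that passed a test in all 27 libraries. At 06:00 of day 11 it stood at 10.6 CPM in the colony 2 library and at 24.9 and 27.8 CPM in colony 1. At 10:00, where Cry2 was lowest, Per was at 25.9 and 31.9 CPM in colony 2 and at 28.3 and 33.0 CPM in colony 1. These 4 libraries of 10:00 lay inside the range of the later times. At 14:00 Per was at 17.7 and 27.1 CPM in colony 2 and at 26.8 and 30.5 CPM in colony 1. At 18:00 it was at 23.5 and 41.9 CPM in colony 2 and at 37.4 and 33.8 CPM in colony 1. The colony 2 pair of 18:00 differed by a factor of 1.78, the widest gap between replicates of Per at any time.

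At 22:00 Per was at 35.3 and 29.5 CPM in colony 2 and at 29.7 and 39.0 CPM in colony 1. At 02:00 it was at 25.0 and 32.5 CPM in colony 2 and at 31.1 and 27.4 CPM in colony 1. At 06:00 of day 12 it was at 26.6 and 19.1 CPM in colony 2 and at 39.9 and 26.8 CPM in colony 1. Over the 7 time points the libraries overlapped in 20 of 21 pairs. The exception was 22:00 against 06:00 of day 11, where the lowest library of 22:00 was just above the highest of 06:00. At least 1 such pair was present for 44.3% of all genes.

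The highest mean of Per was at 18:00, with 34.2 ± 7.84 CPM (SD, n = 4), and the lowest at 06:00 of day 11, with 21.1 ± 9.23 CPM (SD, n = 3), a ratio of 1.62, or 1.30 without the 3 libraries that stand apart. In colony 2 the ratio of these times was 3.10, and in colony 1 it was 1.35. The difference was 0.79 on the log2 scale (SE 0.257, edgeR adjusted p = 0.140, 0.0204% of genes called). Without replicate 2 of colony 2 at 06:00 of day 11, where Per had its lowest level of all, the difference was 0.47. Within colony 2, where that library is the whole group of 06:00, the difference was 1.63 (SE 0.535, edgeR adjusted p = 0.0285), in a pair where 24.8% of genes were called. Per was also called there at 22:00 (1.63, edgeR adjusted p = 0.0339, 20.5% called) and at 02:00 (1.46, edgeR adjusted p = 0.0449, 26.8% called), each against the same library, which the fit takes to vary like the other groups. Between 22:00 and 10:00, the pair with the widest difference of Cry2, Per differed by 0.17 (SE 0.231, edgeR adjusted p = 0.755). In order of its mean Per went 06:00 of day 11, 14:00, 06:00 of day 12, 02:00, 10:00, 22:00 and 18:00, and all 6 neighbouring pairs overlapped, with edgeR adjusted p-values of 0.588 or higher.

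Across the 7 time points the fitted range of Per was 0.79, close to the median of 0.61 over all genes, with edgeR adjusted p = 0.356. Its cosine had a peak at 19.95 h and a size of 0.40, against a median of 0.37 over all genes, with edgeR adjusted p = 0.327. In colony 2 alone the peak of Per was at 19.9 h with a size of 0.58 (edgeR adjusted p = 0.571), and in colony 1 alone it was at 19.7 h with a size of 0.23 (edgeR adjusted p = 0.616). Without the 3 libraries that stand apart the range was 0.49 (edgeR adjusted p = 0.631), and the cosine had its peak at 21.1 h and a size of 0.41 (edgeR adjusted p = 0.254). Neither test passed in any of 42 alternatives. The tagwise biological coefficient of variation was 0.426 for Cry2 and 0.232 for Per, against 0.329 for all genes in common. For Cry2 this takes in the library with no read.

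The colonies were compared with time in the model. Colony 2 minus colony 1 was -0.12 on the log2 scale for Cry2 (SE 0.276, edgeR adjusted p = 0.791), and -0.30 for Per (SE 0.129, edgeR adjusted p = 0.0908). Neither passed, in a comparison in which 24.9% of all genes were called and 14.3% were called as lower in colony 2. The sign for Cry2 turned without the 3 libraries that stand apart, to 0.28, and the value for Per was then -0.23 (edgeR adjusted p = 0.243). The interaction of colony and time point gave edgeR adjusted p = 0.176 for Cry2 and 0.327 for Per, where 22.5% of genes were called. For Cry2 it passed in 6 of 37 alternatives, among them the fits without replicate 1 (0.000255) or replicate 2 (0.0288) of colony 2 at 10:00.

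Since both transcripts were counted in the same library, their ratio does not depend on how libraries are scaled to each other. The ratio is of reads and not per length of transcript, so its change between times is informative and its absolute level is not. The log2 ratio of Cry2 to Per at 10:00 was -2.70 in colony 2 replicate 1 and at most -5.95 in replicate 2, the library with no Cry2 read, and it was -2.31 and -2.19 in colony 1. All 4 values were below those of the 23 libraries of other times. At 22:00 the ratio averaged -0.42 ± 0.363 (SD, n = 4) and at 02:00 -0.50 ± 0.504 (SD, n = 4). At 14:00 it averaged -0.95 ± 0.599 and at 18:00 -0.93 ± 0.199 (SD, n = 4 each). At 06:00 it averaged -1.20 ± 0.496 on day 12 (SD, n = 4) and -1.14 ± 0.241 on day 11 (SD, n = 3).

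**Figure D4:**
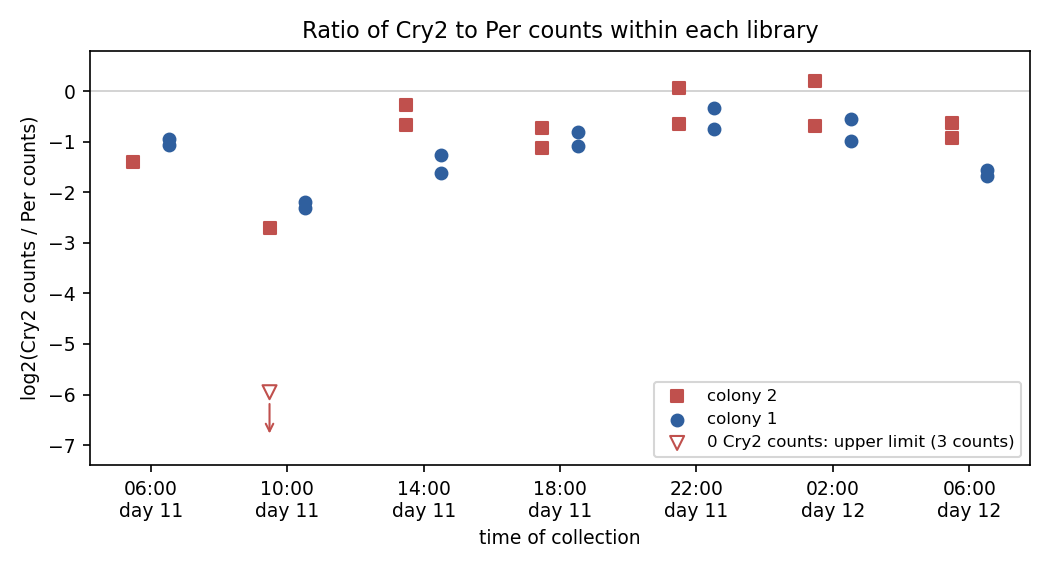
Log2 ratio of Cry2 to Per reads in each library by time of collection, with colony 2 as red squares and colony 1 as blue circles; the open triangle with an arrow is the upper limit for the library with 0 Cry2 reads. The libraries of 10:00 lie at -2.19 or lower, and those of 22:00 between -0.74 and 0.06.

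A permutation test, with times exchanged within each colony and 0.5 added to each count, gave p = 0.00022 for a difference of the ratio among the 7 time points (100000 draws). Without the 3 libraries that stand apart the permutation p was 0.00203. Within colony 1 alone, where no count was 0, the permutation p was 0.00147, and the geometric mean of the ratio was 0.689 at 22:00 and 0.211 at 10:00. Within colony 2 alone the permutation p was 0.1009, with 13 libraries of which the 2 of 10:00 differed most from each other. Leaving out 1 library at a time gave permutation p-values between 5e-05 and 0.01424.

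Whether the 2 transcripts moved together from library to library was examined within each colony, on log2 CPM. In colony 2 Pearson's r was 0.123 (permutation p = 0.654, adjusted 0.654) and Spearman's rho 0.44 (permutation p = 0.135, adjusted 0.27), over 13 libraries. In colony 1 r was 0.32 (permutation p = 0.264, adjusted 0.528) and rho 0.284 (permutation p = 0.324, adjusted 0.324), over 14 libraries. Adjustment was over the 2 colonies. Without the 2 libraries farthest from the median of Cry2, r became 0.822 in colony 2, where those were both libraries of 10:00, and 0.349 in colony 1. The colony 2 value turned on single libraries, being 0.634 (permutation p = 0.0302) without replicate 2 of 10:00 and -0.0523 without replicate 2 of 06:00 of day 11. It was 0.552 over the 10 libraries left without the 3 that stand apart (permutation p = 0.096).

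Markers of other cell types were measured beside these results, since in bulk tissue fewer cells of a type and less RNA per cell cannot be told apart. The 4 matched small Kenyon cell markers, Tk, Ecr, E74 and Ks-1, were detected, with a summed level of 1461 to 1571 CPM at 22:00, 1336 to 1698 CPM at 02:00 and 1272 to 1720 CPM at 10:00. Most of the sum was Tk, with means of 1245 CPM at 22:00 and 989 CPM at 10:00. The means of Ecr, E74 and Ks-1 went the other way, with 63.0, 203 and 19.4 CPM at 22:00 and 73.6, 300 and 37.5 CPM at 10:00. None of the 4 was called over time or with a cosine. The 3 markers of large and middle Kenyon cells, Mblk-1, Camkii and Pkc, summed to 5663 to 8398 CPM at 22:00 and 5395 to 9636 CPM at 10:00, and 0 of 3 was called. Markers of both classes were thus detected in tissue labelled as enriched for small Kenyon cells. Summed CPM of different genes does not give the share of each class, which was not measured. The level of the 2 clock genes cannot be assigned to either class.

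Of 7 listed glial markers only Eaat-2, the gene of a glutamate transporter, could be matched, and which cells express it here was not tested. Eaat-2 ran opposite to Cry2. It stood at 44.3 to 79.1 CPM at 22:00, 28.0 to 55.6 CPM at 02:00 and 72.7 to 165 CPM at 10:00, with a cosine peak at 10.8 h (edgeR adjusted p = 0.0241) and a size of 1.47. Over the 7 time points it was not called (edgeR adjusted p = 0.0905). The 4 photoreceptor opsins summed to 108 to 154 CPM at 22:00, 42.3 to 176 CPM at 02:00 and 43.3 to 375 CPM at 10:00. The 7 muscle markers summed to 36.0 to 135 CPM at 22:00, 19.2 to 169 CPM at 02:00 and 87.6 to 705 CPM at 10:00, and 0 of the 6 that were tested was called. The 14 markers of gland, fat body and hemolymph summed to 157 to 292 CPM at 22:00, 30.5 to 767 CPM at 02:00 and 277 to 371 CPM at 10:00, and 0 of the 10 tested was called. No matched marker was at 0 in all libraries. In the 3 libraries that stand apart the small Kenyon cell markers summed to 405 to 1310 CPM, against 915 to 2166 CPM in the other 24, and Eaat-2 was at 126 to 211 CPM, against 28.0 to 165 CPM. In the same 3 libraries the 2 markers of Kenyon cells at large summed to 67.0 to 256 CPM, against 196 to 426 CPM in the other 24. Muscle markers summed to 196 to 705 CPM there, against 16.6 to 251 CPM, and opsins to 285 to 375 CPM, against 42.3 to 364 CPM. The lowest Kenyon cell sums of the 3, 405 and 67.0 CPM, came from the library of 06:00. The 2 libraries of 10:00 had 1297 and 1310 CPM, and 229 and 256 CPM, inside the ranges of the other 24. Markers of large and middle Kenyon cells summed to 2448 CPM in the library of 06:00 and to 8404 and 9636 CPM in those of 10:00. The other 24 had 3866 to 11040 CPM. The part of these cells in the course of Cry2 was not tested, and Pdf, the marker of clock neurons in insects, could not be matched.

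Around Cry2 and Per, 54 symbols of clock genes and of genes tied to the clock were looked up, and 10 genes besides the 2 were matched, since most identifiers are LOC and a number with no name. All 10 were tested. Over time 2 of 10 were called and with a cosine 1 of 10, where 2.29% and 4.31% of all genes were called. Their median fitted range over time was 1.48 and the median size of the cosine 0.98, against medians of 0.61 and 0.37 over all genes. The opsins had medians of 1.85 and 1.02, and the output and neuropeptide genes 1.73 and 0.99. The nuclear receptors and ecdysone factors had 0.72 and 0.48. Some of the 10 lay near the floor: Lop2 had a mean of 0.436 CPM at 10:00, and NPF 0.0456 CPM at 22:00. Whether they differ from genes of like level was not tested. Of 14 symbols of the core clock only Cry2 and Per were matched, and of 15 of clock kinases, phosphatases and degradation 0. The activators of the loop and the enzymes that set the life of the repressors are therefore not described.

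Of the output and neuropeptide genes, SIFR, the receptor of the neuropeptide SIFamide, was called over time (edgeR adjusted p = 0.0126). It had its highest mean at 10:00, the time at which Cry2 had its lowest. Tk, the gene of the tachykinin-related peptides, had edgeR adjusted p = 0.400 over time and NPF, a neuropeptide tied to feeding in insects, 0.382. NPF was at 0 in at least 1 library of 6 of the 7 time points. Of the genes of the ecdysone response, Ecr, the hormone's receptor, had edgeR adjusted p = 0.439 over time, E74, an early target factor, 0.353, and E75, a nuclear receptor that feeds back on the clock in Drosophila, 0.866.

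Of the opsins, Uvop, the ultraviolet opsin, was called over time (edgeR adjusted p = 0.0417) and with a cosine that had its peak at 1.53 h and a size of 1.03 (edgeR adjusted p = 0.0489). Its mean at 10:00 was the lowest of the 7, as was that of Cry2. Blop, the blue opsin, had edgeR adjusted p = 0.456 over time, Lop1, the long-wavelength opsin, 0.594, and its copy Lop2 0.812. Unlike Uvop, Blop and Lop1 had their highest means at 10:00 (15.5 and 185 CPM), whereas Lop2 had its lowest there (0.436 CPM). The calls of SIFR and Uvop over time were lost without the 4 libraries of 10:00 (edgeR adjusted p = 0.351 for each), and so was the cosine of Uvop (0.0981). In that fit Cry2 had edgeR adjusted p = 0.297 over time, with a range of 1.28, and 0.0494 for the cosine. Leaving out the 3 libraries that stand apart, the call of SIFR over time held (edgeR adjusted p = 0.0421), that of Uvop over time did not (0.0675), and the cosine call of Uvop did (0.0148). With limma-voom Uvop lost both calls, over time (0.0641) and for the cosine (0.0960), and a spread not estimated robustly also ended the cosine's (0.0539). Uvop stayed called over time in only 8 of 27 fits with 1 library left out, and with the cosine in only 7 of 27.

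**Figure D5:**
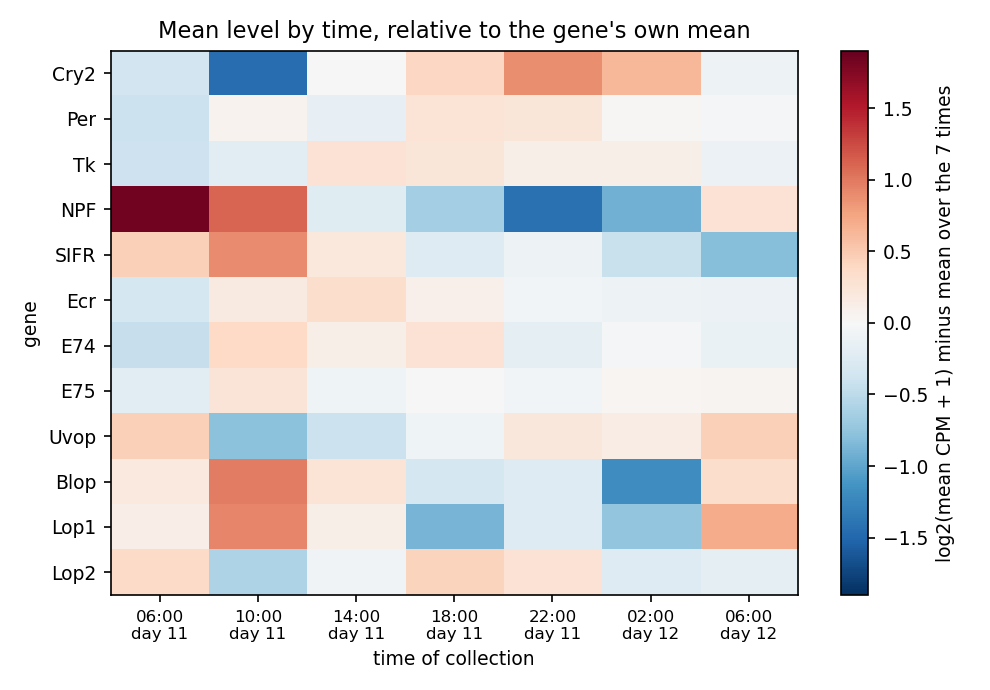
Mean level of Cry2, Per and the 10 other matched genes at each of the 7 time points, as log2(mean CPM + 1) minus the gene's mean over the times; red is above and blue below that mean. Cry2 is lowest at 10:00 and highest at 22:00, and SIFR is highest at 10:00. Per runs from a mean of 21.1 CPM at 06:00 of day 11, where Tk and Ecr are also lowest, to 34.2 CPM at 18:00.

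The genes most like Cry2 and most like Per were sought among 7300 genes of at least 10 CPM on average, by Pearson's r of log2 CPM with the colony mean removed, over 27 libraries that share their depth and dissection. No p is given. For Cry2 the highest values were 0.891 for LOC100577501, 0.887 for Pcl, whose Drosophila counterpart belongs to the Polycomb group of chromatin proteins, 0.88 for LOC100578168, 0.876 for LOC100578255 and 0.87 for LOC551795. Among genes with a name, Dnmt1a, a maintenance DNA methyltransferase, had 0.747 and Sergef 0.725. The lowest values were -0.845 for Obp10, an odorant-binding protein, and -0.802 for LOC410678. Per itself had 0.147 with Cry2.

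Without the 3 libraries that stand apart these values were smaller in size, except that of Per. In the other 24 libraries r with Cry2 was 0.454 for LOC100577501, 0.433 for Pcl, 0.606 for LOC100578168, 0.363 for LOC100578255 and -0.0403 for LOC551795, and that of Per was 0.401. Dnmt1a had 0.452 and Sergef 0.364 there, Obp10 -0.37 and LOC410678 -0.319. The highest in those 24, chosen after the data were seen, were LOC100577833 with 0.733, LOC100576227 with 0.709 and LOC552125 with 0.696. LOC100577833 had 0.732 in colony 1 alone, and its level was 252 ± 38.6 CPM at 22:00 and 78.3 ± 11.7 CPM at 10:00 (SD, n = 4 each).

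For Per the highest values were 0.853 for LOC408906, 0.846 for LOC413451, 0.84 for LOC410307, 0.837 for LOC408508 and 0.834 for LOC724299. Genes with a name included Rga with 0.799 and Pkc, a protein kinase C, with 0.753. The lowest were -0.828 for LOC726977 and -0.819 for LOC726569. Without the 3 libraries that stand apart LOC408906 had 0.738 and Pkc 0.431, and in colony 1 alone they had 0.454 and -0.0202. The highest over those 24 libraries was LOC410178 with 0.79, which had 0.719 in colony 1 alone.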

How the data were processed

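The authors deposited a table of raw counts per gene, whole numbers of reads assigned to genes. Trimmomatic, FastQC, STAR, featureCounts and DESeq2 are named, with no versions, per the submitters' processing notes. Which genome build, gene models and strand option were used for counting is not given in the sources used here. No coordinates are therefore printed. A table of RefSeq genes (assembly Amel_HAv3.1) served for names and neighbours alone, and in it 12166 of the 12319 identifiers were found. No other gene in it overlapped Cry2 or Per.

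Libraries were grouped by time point and colony from their labels. Between replicates the chi-square per degree of freedom was 11.1 or higher, so no pair agreed within sampling noise. The tests ran under R 4.3.3, in edgeR 4.0.16 (filterByExpr by time point, TMM, glmQLFit with a robust spread, glmQLFTest). The filter kept at least 99.97% of each library's counts. Colony was a term in the fits over time, pairs of times and the 24 h cosine, and interactions and single colonies were fitted separately. P-values were adjusted by the Benjamini-Hochberg method across all genes tested and called under 0.05. The SE was taken as the absolute log2 difference divided by the root of its F statistic. The cosine's size is the log2 difference between peak and trough. Log2 CPM has a prior count of 2. Permutation tests, with 100000 draws, used Python 3.11.15 and numpy 2.4.6. A count of 0 allows up to 3 counts. Intervals of this kind cover counting error only.

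The members and the gene lists were chosen with earlier results of these data known, so no list is independent evidence. Genes were named by a rule that took Cry2, Per, every matched gene of the clock lists, and for each of the 2 the 5 genes with the highest and the 2 with the lowest r, plus the 3 highest with a name. One gene that the rule takes is not reported here. The scripts were tested on simulated counts. Alternatives were other scalings, filters and tools (DESeq2 1.42.0, limma 3.58.1), a block by replicate number, summed libraries, single colonies, and leaving out libraries. No sequences are shown, since no sequence table was used here.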

Additional observations from a re-analysis of the deposited data

Results flagged for a closer look

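The Cry2 level of colony 2 replicate 2 at 22:00, 30.8 CPM, lay apart from the other 3 libraries of that time, which were between 22.4 and 23.6 CPM. Its gap to the nearest of them was 0.861 of the range of the group, against a critical value of 0.829 by Dixon's test. Of 12 groups of 4 libraries examined for Cry2 and Per this was the only one to pass, and chance passes about 1 in 20. As the highest library of 22:00, it has no bearing on the separation of 22:00 from lower times. That separation rests on the lowest library of 22:00, at 22.4 CPM.

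For Per, 1 interaction passed, that of colony with the difference between 02:00 and 06:00 of day 11. It rests on a colony 2 group of 1 library at 06:00, so it does not show that the colonies differ. Its value, colony 2 minus colony 1, was 1.29 on the log2 scale (SE 0.487, edgeR adjusted p = 0.0478), in a comparison where 29.7% of all genes were called and 16.9% were called as higher. It was the only one called of 46 such tests of the 2 genes. In colony 2 Per had 25.0 and 32.5 CPM at 02:00 and 10.6 CPM in the single library of 06:00, which is 1 of the 3 that stand apart. In colony 1 it had 31.1 and 27.4 CPM at 02:00 and 24.9 and 27.8 CPM at 06:00. The interaction cannot be computed without that library.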

How the results depend on the processing

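Per passed no test over time or of the cosine in 42 alternatives each. For Cry2 over the 7 time points the adjusted p was 0.0590. It passed with a minimum of 10 CPM (0.0441), DESeq2 (0.000168), limma-voom (0.0190), its quality weights (0.000305), without the 3 libraries that stand apart (0.00497) and in colony 1 alone (0.00519), and leaving out 1 library gave 0.0204 to 0.135. The cosine of Cry2 lost its call with libraries summed per colony and time (0.409) and in colony 2 alone (0.288), and leaving out 1 library gave 0.00377 to 0.0392. The summed fit, with 1 value per colony and time, also ended the calls of 22:00 (2.59) and 02:00 (2.39) against 10:00, which ranged over 2.13 to 2.93 and 1.87 to 2.67 with 1 library left out. The colony difference of Cry2 turned positive with limma-voom (0.041), quality weights (0.14), without the 3 libraries (0.28) and without the 10:00 libraries (0.11), and ranged over -0.20 to 0.036 with 1 library left out. That of Per passed with total counts (-0.35) and ranged over -0.36 to -0.20. The interaction of colony and time for Cry2 passed with DESeq2 (0.00755), limma-voom (0.0215), quality weights (0.00963) and without the 10:00 libraries (0.0350), and ranged over 0.000255 to 0.302. Over time within colony 2 Cry2 ranged over 0.000364 to 0.140. Cry2 at 06:00 of day 12 minus day 11 turned to -0.23 with quality weights, -0.26 without the 3 libraries and -0.29 in colony 1 alone, and ranged over -0.12 to 0.55 with 1 library left out, the lowest without colony 2 replicate 2 of 06:00 of day 11. The ratio did not pass in colony 2 alone (0.1009). The correlation of Cry2 with Per ranged over -0.0523 to 0.634 in colony 2 and 0.179 to 0.411 in colony 1. The cause of these shifts was not tested.

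Genes called numbered 225 over time and 423 with a cosine. DESeq2 called 808 and 904, quality weights 1846 and 1203, the summed fit 0 and 0, and the fit without the 10:00 libraries 7 and 42. Leaving out 1 library gave 105 to 569 and 178 to 1061, and the fit without the 3 libraries called 874 with a cosine. Deviations of same-numbered libraries from their group means had r of -0.166 to 0.159 in colony 2 and -0.0733 to 0.242 in colony 1. The value was over 0.1 in 1 of 15 pairs in colony 2 and in 5 of 21 in colony 1. The labels do not say what the replicate number stands for, so whether it pairs the samples was not settled. With the replicate block, Cry2 had adjusted p = 0.0833 over time and 0.0263 for the cosine, Per 0.433 and 0.365, and 143 and 328 genes were called. Uvop lost both calls (0.0742 and 0.0723). Interactions by time point could not be fitted without colony 2 replicate 2 of 06:00 or with libraries summed. Cry2 had 0 to 267 reads per library against 91 to 429 for Per. The library with no Cry2 read had 6242597 counts in total and 186 reads of Per. The part of depth in the Cry2 values was not tested.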

Other observations

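The neighbours of Cry2 and Per on the RefSeq assembly Amel_HAv3.1 were examined beside them, as values outside the comparisons above. Cry2 lies between LOC410198 and LOC100576882, neither of which was called over time (edgeR adjusted p = 0.376 and 0.512). Per lies between LOC724546 and LOC412116. LOC724546 was called over time (edgeR adjusted p = 0.0381) and with a cosine (edgeR adjusted p = 0.00355) that had its peak at 12.9 h and a size of 0.73 on the log2 scale. Its level was 143 ± 17.4 CPM at 14:00 and 86.4 ± 12.4 CPM at 02:00 (SD, n = 4 each), its highest and lowest means. Per passed no test over time in all 27 libraries, so no lag between the genes is given. LOC412116 had edgeR adjusted p = 0.694 over time.

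Replicates of the same colony and time differed in Cry2 by factors of 1.156 to 1.715 in colony 2, at the 5 time points with a second library and no count of 0, and of 1.014 to 1.374 in colony 1. For Per the factors were 1.196 to 1.784 in colony 2 and 1.105 to 1.489 in colony 1.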
